A study of Homo sapiens with 4 samples.

Results

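The locus on 8q24 that holds the genes MYC and PVT1 was described in NRF2 ChIP-Seq summit lists from MDA-MB-231 mammospheres. MDA-MB-231 is a human breast cancer cell line, and its cells were grown as mammospheres, in MammoCult medium on ultralow attachment dishes, a culture in which stem-like cells are enriched. The SC group (scrambled control, with the genotype given as Parental) and the ZMYND8 KO group had 2 libraries each, all precipitated with the same anti-NRF2 antibody, and the sources used here do not say how many clones stand behind the knockout or whether replicates came from separate cultures. A summit is the base of highest signal in a peak that MACS2 called in 1 library, and its score is taken as −log10 q, so that a higher score stands for a lower q-value of the peak. Members were chosen by position as the summits in a window of 1.6 Mb on chromosome 8 of hg19, chr8:128000000-129600000, and the window was picked from results of these same lists, among them the site called in both ZMYND8 KO lists. The window held 70 of 9717 summits, of which 24 were from SC replicate 1, 37 from SC replicate 2, 4 from ZMYND8 KO replicate 1 and 5 from ZMYND8 KO replicate 2. Because the choice of the window used these values, counts, densities and scores are given as descriptions with no test.

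NRF2 is the transcription factor that dimerizes with small MAF proteins on antioxidant response elements and turns on genes of redox defence. ZMYND8 is a chromatin reader that binds acetylated histones. MYC encodes a transcription factor that drives growth and metabolism. PVT1, which follows MYC in the direction of transcription, gives rise to a long noncoding RNA and hosts microRNAs. Both genes lie in a region otherwise poor in protein-coding genes, where distant enhancers act on MYC. In the gene order of RefSeq, CASC11 precedes MYC, PVT1 follows it, and the nearest protein-coding genes on either side are POU5F1B and GSDMC. MYC spans chr8:128748315-128753680 and PVT1 chr8:128806779-129113499 in hg19, so that MYC is 5.37 kb long and PVT1 307 kb. The labels name both hg19 and hg38, and positions were read as hg19, which the checks run here did not settle. Exons and introns in hg19 were not analysed here, so summits are placed only within, before or after a gene.

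Lists differed in length. SC replicates 1 and 2 held 2030 and 6816 summits, and ZMYND8 KO replicates 1 and 2 held 394 and 477. The lists carry no read counts, so the depth of sequencing is unknown. Scores and ranks are therefore read within a list, where rank 1 is the highest score and equal scores share the lower number. Expression markers of the cell type are not part of summit lists and were not checked.

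The locus was dense in NRF2 summits in every library. SC replicate 1 had 15.0 summits per Mb in the window against 1.01 per Mb on the rest of chromosome 8, a ratio of 14.9. For SC replicate 2 the densities were 23.1 and 3.05 per Mb, with a ratio of 7.58. ZMYND8 KO replicate 1 had 2.50 against 0.21 per Mb, a ratio of 11.9, and ZMYND8 KO replicate 2 had 3.12 against 0.224 per Mb, a ratio of 14. The 4 ratios thus lay between 7.58 and 14.9, and the SC and ZMYND8 KO libraries overlapped in them. The rest of the chromosome was taken as the 143 Mb between the outermost summits of all lists.

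Chromosome 8 was laid out in 92 windows of the same width, edge to edge with the locus. In SC replicate 1 no other window reached 24 summits, and the next highest held 13. In SC replicate 2 the 37 summits were exceeded by 3 windows with 40, 48 and 74, all between 12.1 and 16.9 Mb beyond the start of MYC. These 3 windows held 0, 0 and 1 summit in each ZMYND8 KO list. In both ZMYND8 KO lists 2 windows held at least as many summits as the locus, the larger of them with 9. Of the other 91 windows, 51 were empty in SC replicate 1, 29 in SC replicate 2, and 75 and 74 in the ZMYND8 KO replicates. The share of chromosome 8 summits that lay in the locus was 14.3% and 7.82% in the SC libraries and 11.8% and 13.5% in the ZMYND8 KO libraries.

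**Figure D1:**
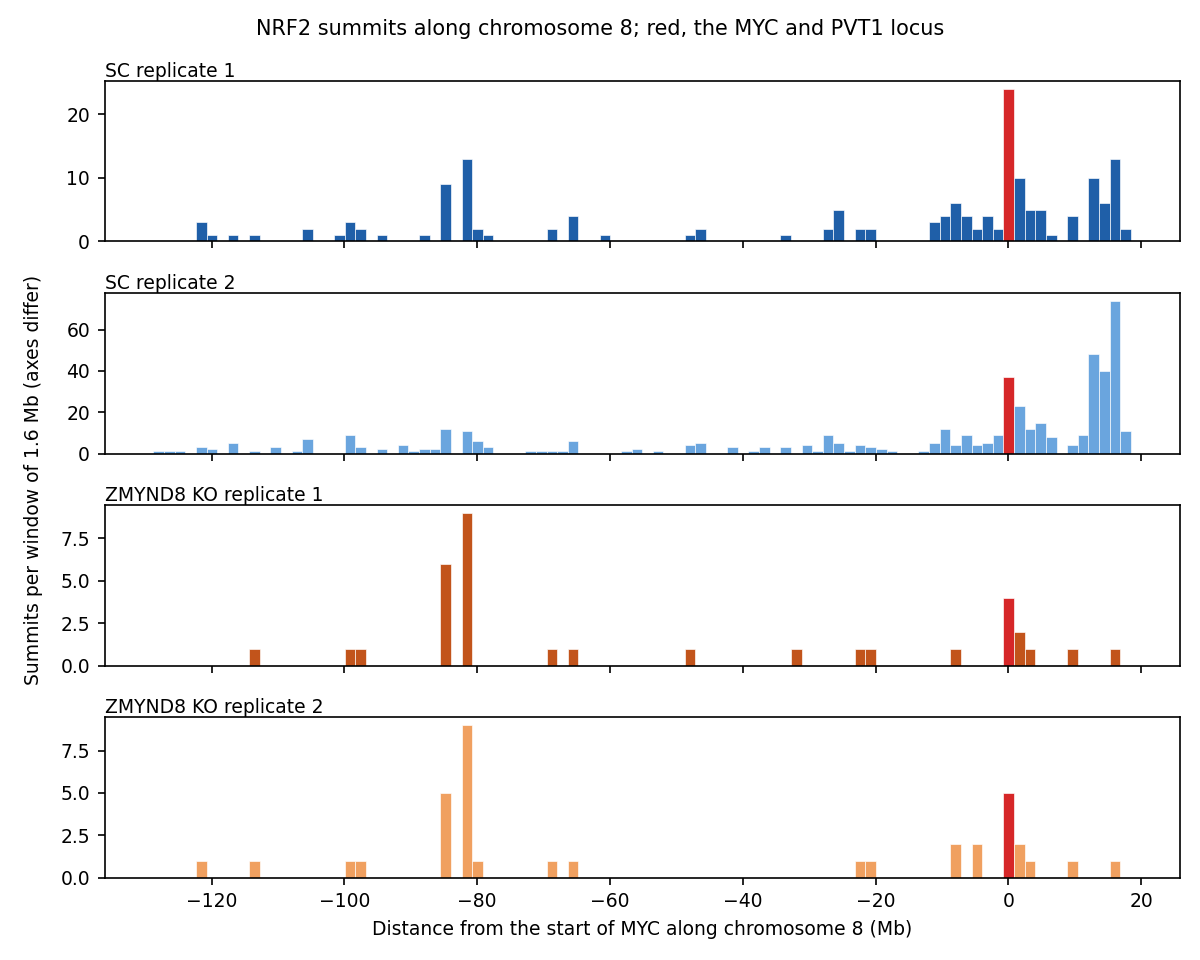
Number of NRF2 summits per window of 1.6 Mb along chromosome 8 (y axis, scaled separately for each library) against the distance of the window from the start of MYC in Mb (x axis), 1 panel per library, with the MYC and PVT1 locus in red. The locus is the highest bar in SC replicate 1 with 24 summits, the fourth highest in SC replicate 2 with 37, and holds 4 and 5 summits in the ZMYND8 KO replicates.

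The outermost members were at least 228 kb inside the lower limit and at least 30.3 kb inside the upper limit. Outside, the nearest summits were those of SC replicate 1 at 127447847, with a score of 3.05, which was 552 kb below the window, and of ZMYND8 KO replicate 2 at 130281834, with a score of 5.19, which was 682 kb above it. Just inside, the outermost summits of SC replicate 1 had scores of 3.04 and 5.91.

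Summits within 200 bp of each other in any list were joined, which gave 50 sites for the 70 summits. Of these, 35 sites were held by a single list, 12 by 2 lists, 1 by 3 lists and 2 by all 4 lists. A summit of SC replicate 2 alone made 23 sites and a summit of SC replicate 1 alone made 12. Both SC lists held 12 sites, of which 3 also had a ZMYND8 KO summit. A ZMYND8 KO summit was missing at 44 of the 50 sites, and 1 site had ZMYND8 KO summits alone. Such absence was common in the whole lists. There, 22.2% of the summits of SC replicate 1 and 7.00% of those of SC replicate 2 had a ZMYND8 KO summit within 200 bp. With all 4 lists pooled, 45 of the 70 summits (64.3%) fell into 5 runs of at most 4.48 kb. A run was at least 5 summits in which neighbours lay within 5000 bp, so the same site in several lists counted several times. The share in runs was not computed for the rest of chromosome 8.

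**Figure D2:**
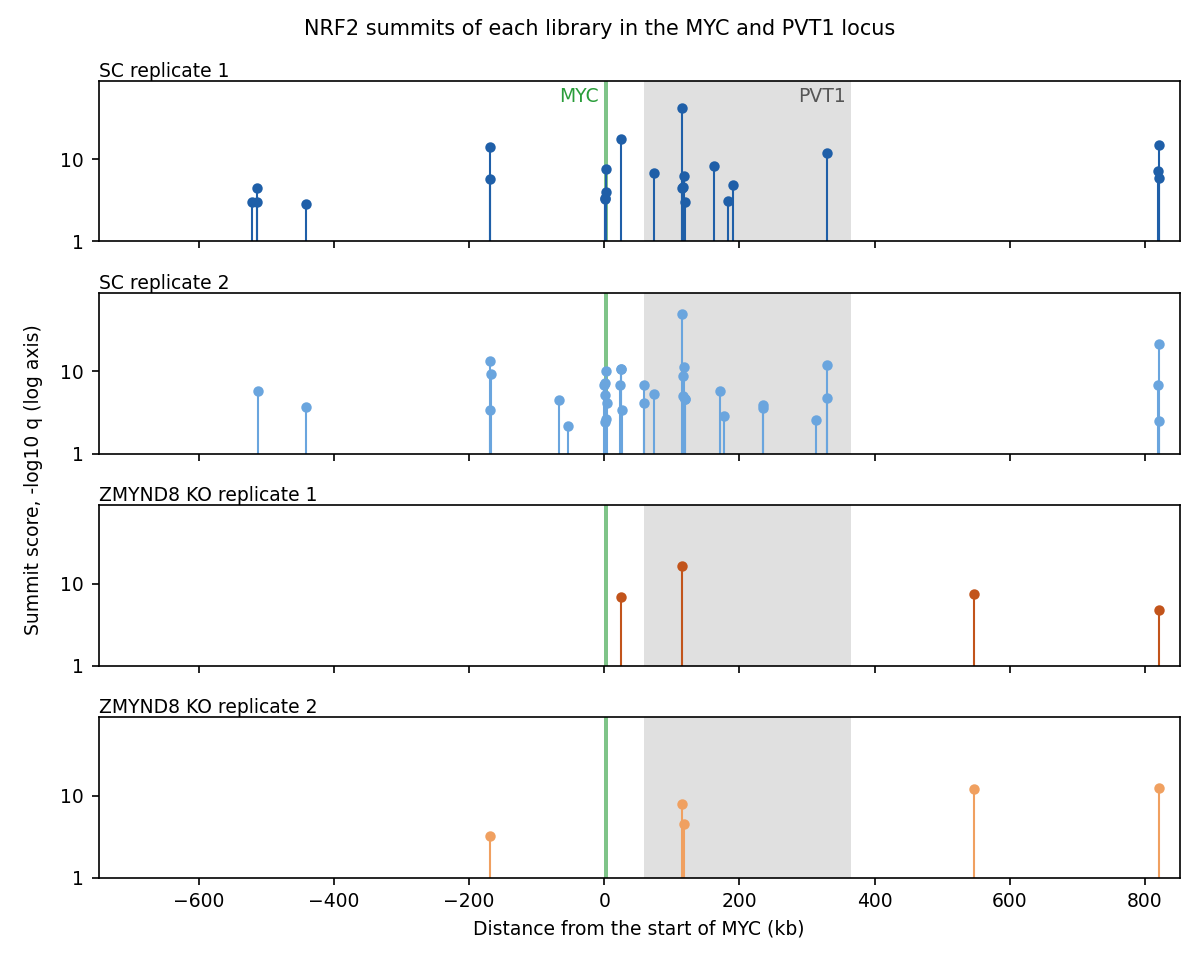
Score of each NRF2 summit as −log10 q (y axis, log scale) against its distance from the start of MYC in kb (x axis), 1 panel per library, with MYC in green and PVT1 in gray. Summits of both SC libraries gather 169 kb before the start of MYC, in MYC, at 116 kb within PVT1 and at 821 kb. Near 24.8 kb SC replicate 1 has 1 summit and SC replicate 2 has 4. The ZMYND8 KO libraries have 4 and 5 summits in the locus, none of them in MYC.

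Within the MYC gene, SC replicate 1 had 4 summits and SC replicate 2 had 7, and neither ZMYND8 KO library had any. The gene makes up 0.335% of the window and held 16.7% and 18.9% of the members of the SC lists. All of these lay in the same run of 4.16 kb, and no such share was computed for genes outside the window. In SC replicate 1 these summits lay 1016, 1316, 2155 and 2729 bp from the start of MYC, with scores of 3.36, 3.33, 4.04 and 7.56. In SC replicate 2 they lay from 293 to 4449 bp from the start, with scores from 2.39 to 10.1. All of them were therefore between the start and the end of the gene, and the highest of each list was 2729 and 2966 bp from the start, 237 bp apart.

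Of the 4 summits of SC replicate 1 in MYC, 3 were met by SC replicate 2 within 200 bp, at offsets of 118, 70 and 33 bp. Their ranks were low, between 1592 and 1734 of 2030. The same 3 sites ranked 5581, 1002 and 4801 of 6816 in SC replicate 2. Peaks in MYC were thus called in both SC libraries. In SC replicate 1 only the one with a score of 7.56, ranked 756, exceeded the median of its list, 6.16, while in SC replicate 2 all but those with scores of 2.39 and 2.63 exceeded the median of 3.65.

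The summit nearest to the start of MYC was at 1016 bp in SC replicate 1 and at 293 bp in SC replicate 2. In ZMYND8 KO replicate 1 it was at 24.5 kb, beyond the end of the gene, and in ZMYND8 KO replicate 2 at 116 kb, within PVT1. Upstream of the gene, the closest summit of any list was 53.7 kb away, in SC replicate 2, with a score of 2.19.

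Between MYC and PVT1, the strongest site lay 24.8 kb from the start of MYC. SC replicate 1 and SC replicate 2 both had their summit at 128773066, the same base, with scores of 17.6 and 10.7 and ranks of 225 and 560. A further summit of SC replicate 2, 234 bp before it at 128772832 with a score of 10.6, had a summit of ZMYND8 KO replicate 1 at a distance of 1 bp, with a score of 6.96 and a rank of 274 of 394. ZMYND8 KO replicate 2 had no summit between the genes. Measured from SC replicate 1, the ZMYND8 KO replicate 1 summit was 233 bp away and so was not counted as shared at 200 bp.

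**Figure D3:**
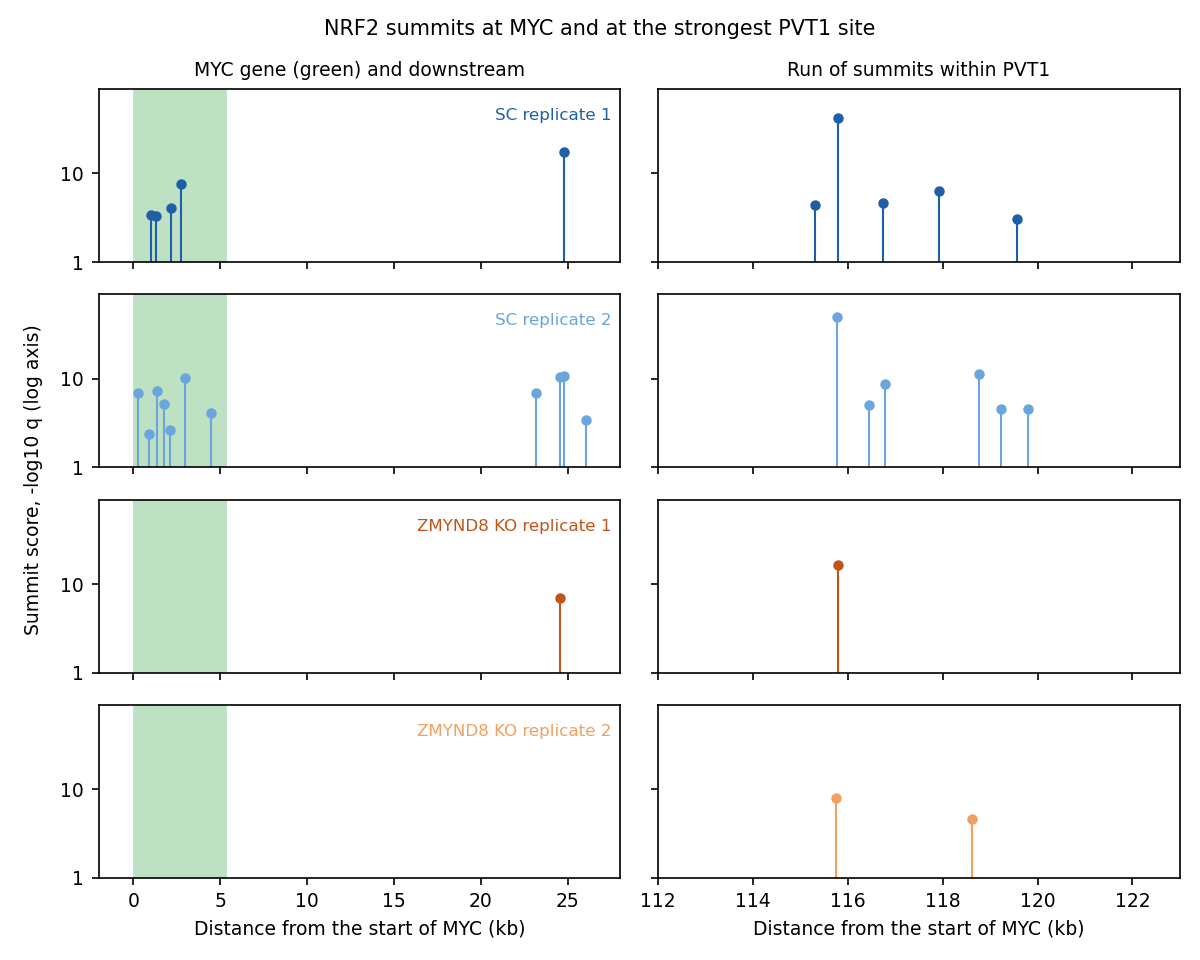
Score of each NRF2 summit as −log10 q (y axis, log scale) against its distance from the start of MYC in kb (x axis), in the MYC gene and the stretch after it (left, gene in green) and in the run of summits within PVT1 (right), 1 row per library. MYC holds 4 and 7 summits in the SC replicates and 0 in the ZMYND8 KO replicates, and the site at 116 kb is present in all 4 rows.

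PVT1 held 10 summits of SC replicate 1, 15 of SC replicate 2, 1 of ZMYND8 KO replicate 1 and 2 of ZMYND8 KO replicate 2. The gene makes up 19.2% of the window and held 41.7% and 40.5% of the SC members. The summit nearest to the start of PVT1 was 110 bp inside the gene in SC replicate 2, with a score of 6.87, and another of that list lay 363 bp before the start with a score of 4.11. The nearest of SC replicate 1 was 15.5 kb inside, with a score of 6.87 and a summit of SC replicate 2 at 59 bp. For the ZMYND8 KO replicates the nearest were 33.9 kb before and 57.3 kb after the start of PVT1. A summit at the start of PVT1 was thus called in SC replicate 2 only.

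The strongest site of the locus lay 57.3 kb into PVT1, and all 4 libraries called it within 49 bp. SC replicate 1 had it at 128864097 with a score of 42.1, ranked 57 of 2030. SC replicate 2 had it at 128864092 with a score of 49.8, ranked 46 of 6816. ZMYND8 KO replicate 1 had it at 128864107 with a score of 16.4, ranked 111 of 394. ZMYND8 KO replicate 2 had it at 128864058 with a score of 8.0, ranked 280 of 477. In 3 lists it was the highest score of the locus, and in ZMYND8 KO replicate 2 it came after the sites at 547 and 821 kb from the start of MYC.

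As a share of lists of unequal length, the site stood in the top 2.81% and 0.675% of the SC lists and at 28.2% and 58.7% of the ZMYND8 KO lists. Summits of SC replicate 1 ranked up to 100 served for comparison. Of these, 93 had a summit of ZMYND8 KO replicate 1, with a median rank there of 56, and 93 had one of ZMYND8 KO replicate 2, with a median rank of 58. Among them, 73 ranked above the PVT1 site and 19 below it in ZMYND8 KO replicate 1, and 87 ranked above and 4 below it in ZMYND8 KO replicate 2. The PVT1 site thus kept its call in both ZMYND8 KO lists, at a lower place than most partnered summits among the first 100 of SC replicate 1. The site itself ranked 57 there, so these summits include many with a higher SC score. Starting from SC replicate 2, the counts were 68 above and 20 below in ZMYND8 KO replicate 1, and 85 above and 4 below in ZMYND8 KO replicate 2.

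A run of 14 summits surrounded this site over 4.48 kb, made of 5 and 6 SC summits, 1 of ZMYND8 KO replicate 1 and 2 of ZMYND8 KO replicate 2. In it, ZMYND8 KO replicate 2 had a second summit at 128866928 with a score of 4.58, which lay 142 bp from a summit of SC replicate 2 with a score of 11.2. The nearest summit of SC replicate 1 was 697 bp away from it.

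Near the far end of PVT1, 271 kb from its start, both SC libraries called a site that neither ZMYND8 KO library had. SC replicate 1 had it at 129078104 with a score of 11.8, ranked 375, and SC replicate 2 at 129078138 with a score of 11.9, ranked 480. The closest ZMYND8 KO summit was 211 kb away. Over the whole lists, 64.3% and 55.4% of SC summits with a score of 10 or more had a ZMYND8 KO summit within 200 bp. The SC summits of PVT1 not given above had scores between 2.53 and 8.72, and most were called in 1 SC list alone.

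Upstream of MYC, the 748 kb of the window held 6 summits of SC replicate 1, 7 of SC replicate 2, 0 of ZMYND8 KO replicate 1 and 1 of ZMYND8 KO replicate 2. The strongest site here was 169 kb before the start of MYC. SC replicate 1 had it at 128579782 with a score of 14.2, ranked 299, and SC replicate 2 at 128579624 with a score of 13.5, ranked 403. ZMYND8 KO replicate 2 had a summit at 128579829 with a score of 3.22, ranked 457 of 477, which was 47 bp from SC replicate 1 but 205 bp from SC replicate 2. ZMYND8 KO replicate 1 had none. This was the 1 site held by 3 lists, and in ZMYND8 KO replicate 2 it was the lowest of the 5 members.

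Downstream of PVT1, each SC library had 3 summits and each ZMYND8 KO library had 2. At 821 kb from the start of MYC all 4 lists called a site within 28 bp. SC replicate 1 had it at 129569117 with a score of 15.0 and a rank of 272, and SC replicate 2 at 129569124 with a score of 21.7 and a rank of 187. ZMYND8 KO replicate 1 had it at 129569096 with a score of 4.73, ranked 329 of 394, and ZMYND8 KO replicate 2 at 129569116 with a score of 12.6, ranked 156 of 477. The ZMYND8 KO replicates differed here, since the site was the lowest member in replicate 1 and the highest in replicate 2. Summits of SC replicate 1 ranked after the first 100 and up to 300 served for comparison. Of these 200, 106 had a summit of ZMYND8 KO replicate 1 and 110 had one of ZMYND8 KO replicate 2. Among those with a partner, 92 ranked above the site at 821 kb and 13 below it in ZMYND8 KO replicate 1. In ZMYND8 KO replicate 2, 37 ranked above it and 71 below.

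A further downstream site was called in ZMYND8 KO mammospheres and in neither SC list. It lay at 129295598 in ZMYND8 KO replicate 1 and at 129295599 in ZMYND8 KO replicate 2, which was 182 kb past the end of PVT1 and 547 kb from the start of MYC. Its score was 7.53, ranked 255 of 394, in replicate 1 and 12.2, ranked 168 of 477, in replicate 2. It was the second highest member of the locus in both lists. The nearest summit of either SC list was 217 kb away, at the site near the far end of PVT1. The site was chosen for this pattern, which is therefore a description and no test of a difference between the groups.

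A summit without an SC summit within 200 bp but with a partner in the other ZMYND8 KO list was rare in the whole lists, with 12 of 394 (3.05%) in replicate 1 and 12 of 477 (2.52%) in replicate 2. With no SC summit allowed within 1000 bp, 1 remained in each list, and this was the site described here. It was also the only such site at 10000 bp and at 100000 bp. The site had been chosen for this pattern, and these larger distances were added after the values were seen. Without regard to the partner, 6 summits of ZMYND8 KO replicate 1 and 12 of ZMYND8 KO replicate 2 had no SC summit within 100000 bp. The summits of the 2 ZMYND8 KO lists differed by 1 bp at this site. Over all 271 summits of ZMYND8 KO replicate 1 with a partner in replicate 2, the median offset was 14 bp, and 25 (9.23%) lay within 1 bp. No input library was analysed here, so whether the site would also be called without the antibody was not tested.

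**Figure D4:**
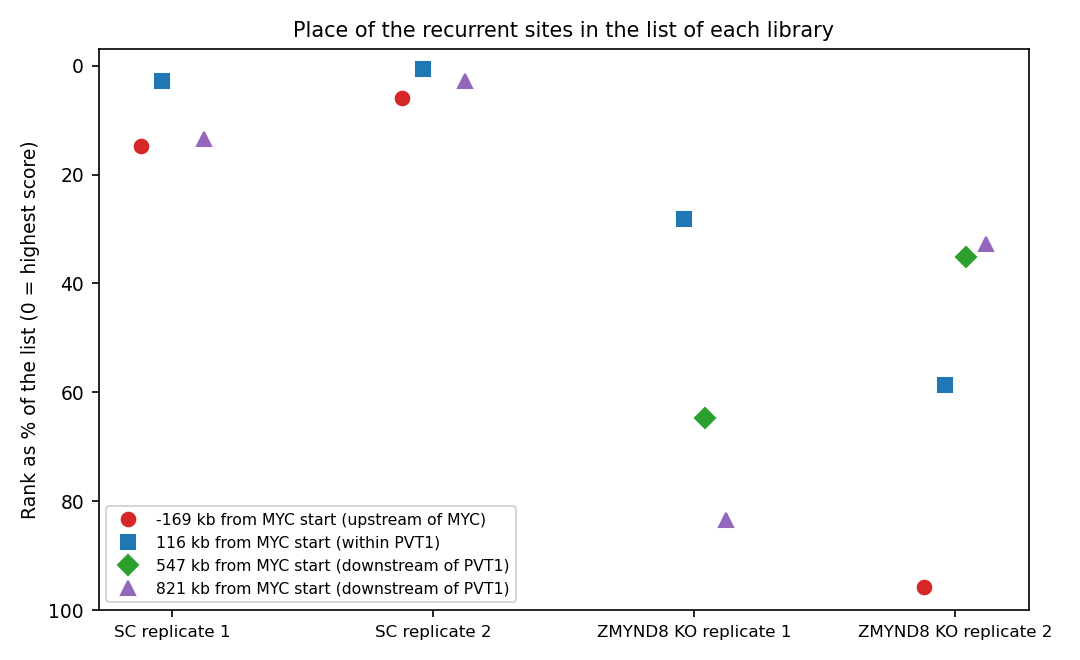
Rank of each site as a percentage of the list of its library, with the highest score at 0 (y axis, inverted), for the 4 libraries (x axis, points set apart sideways for reading). Plotted are the sites held by 3 or 4 lists and the site called in the ZMYND8 KO lists alone, named by their distance from the start of MYC. The PVT1 site at 116 kb stands at 2.81% and 0.675% in the SC lists and at 28.2% and 58.7% in the much shorter ZMYND8 KO lists, where partners of the first 100 summits of SC replicate 1 have medians of 14.2% and 12.2%, while the site at 547 kb has points in the ZMYND8 KO lists only, at 64.7% and 35.2%.

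Recurrence between the SC libraries was set beside that of their whole lists. In the locus, 12 of 24 summits of SC replicate 1 (50%, Wilson 95% interval 31.4% to 68.6%) recurred within 200 bp in SC replicate 2, against 58.7% of its whole list. For SC replicate 2 the count was 12 of 37 (32.4%, 19.6% to 48.5%), against 17.6% of the whole list and 17.9% of the rest of chromosome 8. The intervals assume independent summits, and neighbours of 1 run are not independent. The offset at the 12 shared sites had a median of 37 bp and ran from 0 to 158 bp. By location, 3 of the 12 were in MYC, 4 in PVT1, 2 upstream of MYC, 2 downstream of PVT1 and 1 between the genes.

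A ZMYND8 KO summit lay within 200 bp of 3 of 24 members in SC replicate 1 (12.5%, 4.34% to 31.0%) and of 4 of 37 in SC replicate 2 (10.8%, 4.29% to 24.7%). The shares of the whole lists were 22.2% and 7.00%, within both intervals. ZMYND8 KO members had an SC summit in 3 of 4 cases in replicate 1 and in 4 of 5 in replicate 2, against 91.1% and 88.1% of the whole lists. Between the ZMYND8 KO lists, 3 of 4 and 3 of 5 members recurred, against 68.8% and 56.8%. With 4 and 5 members the intervals were wide, the narrowest from 37.6% to 96.4%, and they covered all 4 whole-list shares.

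**Figure D5:**
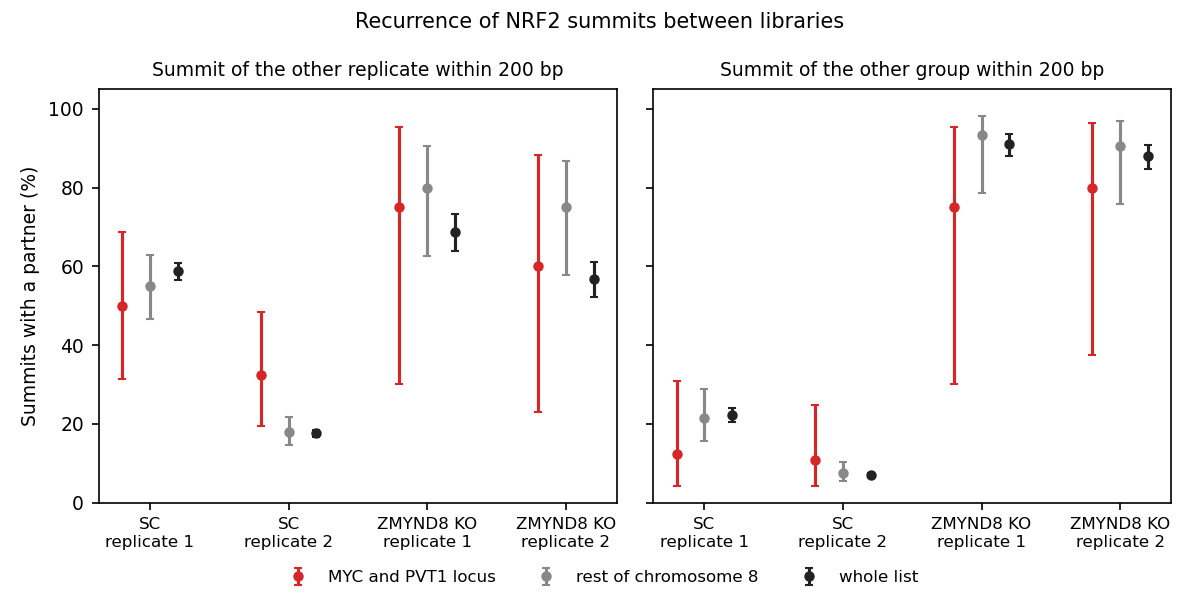
Percentage of summits with a summit of the other replicate of the same group (left) or of either library of the other group (right) within 200 bp (y axis), for the 4 libraries (x axis), in the MYC and PVT1 locus, the rest of chromosome 8 and the whole list. Points are shares and bars are Wilson 95% intervals, and the interval of the locus covers the share of the whole list except in SC replicate 2 on the left, where 32.4% stands beside 17.6%.

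In the locus, the SC libraries held 30.5 ± 9.19 summits (SD, n = 2) and the ZMYND8 KO libraries 4.5 ± 0.707 (SD, n = 2), a ratio of 0.148. Ratios of single libraries ran from 0.108 to 0.208. The ratio was 0.107 on the rest of chromosome 8 and 0.0985 over the whole lists, and single ratios there ran from 0.0688 to 0.222 and from 0.0578 to 0.235. The ratio of the locus thus lay inside the range of single ratios for the rest of the chromosome. An exact permutation test of 2 libraries against 2 could not go below a two-sided p of 0.333.

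Taking only the top 300 summits per list, so that all lists were of like length, there were 4 members in SC replicate 1, 2 in SC replicate 2 and 3 in each ZMYND8 KO replicate, a ratio of 1.0, and the groups overlapped. At a score of at least 10 there were 5 and 8 SC members and 1 and 2 ZMYND8 KO members, a ratio of 0.231. The groups did not overlap in this count, nor did they over the whole lists, which held 473 and 617 such summits in the SC and 196 and 213 in the ZMYND8 KO libraries.

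ZMYND8 KO partners were found at the high-scoring SC members. Of the members with a score of 10 or more, 3 of 5 in SC replicate 1 and 4 of 8 in SC replicate 2 had a ZMYND8 KO summit within 200 bp, against 64.3% and 55.4% of such summits in the whole lists. Of the members with a score under 10, 0 of 19 (Wilson 95% interval 0% to 16.8%) and 0 of 29 (0% to 11.7%) had one, against 9.44% and 2.18% in the whole lists. The whole-list shares lay inside these intervals. All summits of SC replicate 1 in MYC belonged to the lower class. The one MYC summit of SC replicate 2 past it, with a score of 10.1, had no partner.

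Median scores of the members were 5.28 and 5.23 in the SC lists, against 6.16 and 3.65 for the whole lists, and 7.25 and 8.0 in the ZMYND8 KO lists, against 9.86 and 8.69. The median of the members was thus below that of the list in 3 libraries and above it in SC replicate 2, where 27 of 37 members exceeded it.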

How the data were processed

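NRF2 ChIP-Seq of 2 SC and 2 ZMYND8 KO libraries was used. The authors sequenced the precipitated DNA, called peaks in each library and deposited their summits, each with a score that was taken as −log10 q because the lowest of all was 1.32, just above 1.3, the −log10 of 0.05. The submitters' processing notes name FastQC 0.11.2, Bowtie2 2.2.3, Picard 1.127, MACS2 2.0.10 and the builds hg19 and hg38, without roles. A control library is not given in the sources used here. The lists were read as hg19, which the checks run here did not settle. In favour of hg19, 35 summits of chromosome 8 lay beyond the last gene of that chromosome in GRCh38. They came from every list, with 4 and 29 in SC replicates 1 and 2 and 1 in each ZMYND8 KO replicate. In addition, 66 of the 473 chromosome 8 summits of SC replicate 2 lay within 1000 bp of either end of a GRCh38 gene when all were moved by 1013000 bp toward the start of the chromosome, the highest count of 8001 moves up to 2.0 Mb, against 31 unmoved. The best moves of the other lists differed from this and from each other, with 25 of 168 summits at 1259500 bp toward the end of the chromosome in SC replicate 1 (7 unmoved), 9 of 34 at 351500 bp toward the end in ZMYND8 KO replicate 1 (2 unmoved) and 9 of 37 at 13500 bp toward the start in ZMYND8 KO replicate 2 (2 unmoved). No position was converted.

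The members, lists and named site were chosen with earlier results of these data known. Summits named singly were those of sites in 3 or 4 lists, the highest of each list, those nearest to the starts of MYC and PVT1, and the ZMYND8 KO site. Every other summit given with its own values, such as those in MYC and at the far end of PVT1, was added after the values were seen. So were score classes, runs, larger distances for the ZMYND8 KO site and ranks beside SC summits of set rank ranges. Depth is unknown, so its precision could not be computed, and Wilson intervals cover counting error only. RefSeq (GRCh38.p14) gave gene order, with both genes matched. Sequences of the region are not reported here. Functions were tested on simulated data. Computation used matplotlib 3.10.9, pandas 2.3.3, scipy 1.17.1 and numpy 2.4.6 under Python 3.11.15. No test was made between the groups.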

Additional observations from a re-analysis of the deposited data

How the results depend on the processing

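Depth is unknown and limits every count. At a score of at least 10 the members numbered 5 and 8 in the SC and 1 and 2 in the ZMYND8 KO replicates, the ratio was 0.231, and the densities over the rest of chromosome 8 were 20.4, 8.93 and 10.5 times in SC replicate 2 and the ZMYND8 KO replicates. Among the 300 highest-scoring summits the counts were 4, 2, 3 and 3, the ratio was 1.0, and the densities were 21.0, 13.4 and 11.6 times in SC replicate 1 and the ZMYND8 KO replicates. From the start of MYC to the end of PVT1 the lists held 15, 27, 2 and 2 summits, at 38.7, 23.9, 24.7 and 22.6 times the density of the rest. Without windows empty in every list, densities were 10.8 and 5.52 times in the SC replicates and 8.67 and 10.2 times in the ZMYND8 KO replicates. Each density stayed above that of the rest under every alternative run. The window was picked from these same lists and the alternatives reuse their summits, so this is a description and no test of the density.

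With both lists limited alike, the share of SC replicate 1 members with a summit of SC replicate 2 was 75.0% within 1000 bp and 100% at a score of at least 10. That of SC replicate 2 was 54.1% within 500 bp, 62.2% within 1000 bp, 62.5% at that score and 100% of its 2 members among the 300 highest. With a ZMYND8 KO summit the shares of the SC replicates were 45.8% and 32.4% within 1000 bp and 40% and 25.0% at that score. Among the 300 highest they were 50% of 4 members and 100% of 2. At a score of at least 10 the ZMYND8 KO replicates had only 1 and 2 members. Of these, 0% had a partner in the other replicate, and the 1 member of ZMYND8 KO replicate 1 had an SC summit. The ZMYND8 KO site was then in 1 list. With all summits, it was in both ZMYND8 KO lists, without an SC summit within 500 or 1000 bp.

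Leaving out 1 library, the ratio ran from 0.122 to 0.188, the shares with a summit of the other group from 8.11% to 12.5% for SC and from 50% to 75.0% for ZMYND8 KO. As a replicate block, with libraries paired by number, the mean ratio was 0.151. The labels tie a replicate number to no batch, culture or day, and whether the numbers pair the libraries could not be checked with 2 of them a group. Of 95 alternative values, 55 stayed within the spread, interval or fold limit set for them.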

Other observations

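Beyond the end of PVT1, the window next to the locus, from 0.852 to 2.45 Mb past the start of MYC, held 10 and 23 summits in the SC libraries and 2 in each ZMYND8 KO list. On the other side of MYC, the adjoining window held 2 and 9 SC summits and 0 in both ZMYND8 KO lists.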
